A study of Mus musculus with 6 samples.

Results

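The 10 genes described here encode enzymes that write or erase methyl groups on lysine 36 of histone H3 (H3K36). There were 5 writers (Nsd2, Nsd1, Nsd3, Setd2 and Ash1l) and 5 erasers (Kdm2a, Kdm2b, Kdm4a, Kdm4b and Kdm4c). They were chosen by gene symbol from the 55487 genes listed in the count table. Each symbol had 1 row, and all 10 were among the 14650 genes that passed the filter on low counts. The question was whether another H3K36 writer or eraser shifted when Nsd2 was lost.

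RNA-seq was performed on intestinal epithelial cells (IECs) taken from the colon after exposure of the animals to dextran sodium sulphate (DSS), a polymer in the drinking water that damages the epithelial lining and brings on colitis. The control group, NSD2-FF (Nsd2 f/f, 3 libraries), carried Nsd2 alleles flanked by loxP sites without Cre, and its samples and count columns are titled WT. The other group, NSD2-FF-VILCRE (Nsd2 Vil-KO, 3 libraries), carried the same floxed alleles plus Cre under the Villin promoter, which is active in the intestinal epithelium. All libraries came from DSS-treated animals, so the effect of DSS itself could not be measured. Per the study's methods, mice on a C57BL/6J background received 2% DSS at 2 months of age and littermates served as controls. The sampling day for RNA-seq is not given in the sources used here. The labels do not say that the libraries of a group came from separate animals, so the p-values measure the spread between these libraries.

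NSD1, NSD2 and NSD3 are closely related methyltransferases that place mainly mono- and dimethyl marks on H3K36. SETD2 travels with elongating RNA polymerase II and places the trimethyl mark over transcribed gene bodies, whereas ASH1L is a trithorax-group methyltransferase that makes dimethyl H3K36. KDM2A and KDM2B are JmjC demethylases of the lower methyl states that bind CpG islands through a CXXC zinc finger, and KDM4A, KDM4B and KDM4C remove trimethyl marks from H3K9 and H3K36. H3K36 methylation lies over active chromatin, where it hinders Polycomb repressive complex 2 and guides DNA methylation.

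The libraries held between 15439123 and 20350539 counted reads. The 10 epithelial markers summed to between 12955 and 19396 CPM (counts scaled to the effective size of each library by TMM), with the keratin gene Krt8 the largest, and none of the markers checked was at 0 in every library. Leukocyte markers (18 genes) summed to between 33.8 and 821 CPM in Nsd2 f/f and between 92.7 and 1016 CPM in Nsd2 Vil-KO, with S100a8 and S100a9 holding most of the higher sums. Stromal markers (15 genes) summed to between 11.5 and 273 CPM in Nsd2 f/f and between 8.88 and 81.2 CPM in Nsd2 Vil-KO. All 12 stromal markers tested had a log2 fold change below 0 (median -1.26). The endothelial gene Pecam1, 1 of the 12, passed the criterion defined below as lower (-1.33, SE 0.55), beside 1.65% of all genes. Pecam1 had between 9 and 48 counts per library and an adjusted p of 0.992 in edgeR. Of the 18 leukocyte markers, 13 had a log2 fold change below 0 (median -0.63) and 0 passed. The libraries labelled Nsd2 f/f replicate 3 and Nsd2 Vil-KO replicate 2 stood apart from the other 4. They held Xist, the RNA that coats the inactive X chromosome of female cells, at 347 and 204 CPM, against at most 0.255 CPM elsewhere. Their summed level of 16 proliferation genes was 402 and 705 CPM, against between 1267 and 1614 CPM in the other 4. Results are therefore also given for the 4 libraries without Xist.

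Because the enzymes fall into families of related genes, the coding sequences were first compared for stretches that reads could share. The stretches below are the longest identical runs between the coding sequences of the 3 NSD genes, in GENCODE vM21 on GRCm38. Capitals mark the shared run, and the lower-case letters are the 20 coding bases on either side. All 3 genes lie on the plus strand.
Nsd1, at chr13:55310541-55312140 across an intron, shared with Nsd2: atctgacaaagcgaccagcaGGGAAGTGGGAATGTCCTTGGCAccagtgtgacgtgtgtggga
Nsd2, at chr5:33893609-33894927 across an intron, shared with Nsd1: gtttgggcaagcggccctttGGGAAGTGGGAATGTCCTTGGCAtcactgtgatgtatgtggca
Nsd1, at chr13:55299856-55299875, shared with Nsd3: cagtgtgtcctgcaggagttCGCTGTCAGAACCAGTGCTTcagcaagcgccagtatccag
Nsd3, at chr8:25700616-25700635, shared with Nsd1: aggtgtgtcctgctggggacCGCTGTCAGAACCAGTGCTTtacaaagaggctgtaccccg
Nsd2, at chr5:33885520-33885539, shared with Nsd3: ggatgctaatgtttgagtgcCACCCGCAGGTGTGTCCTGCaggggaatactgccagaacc
Nsd3, at chr8:25700589-25700608, shared with Nsd2: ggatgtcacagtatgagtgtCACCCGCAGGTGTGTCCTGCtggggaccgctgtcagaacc
The longest run was 23 bases between Nsd1 and Nsd2 and 20 bases between Nsd3 and each of the others. Reads were sequenced to 150 bases at each end and those under 35 bases after trimming were discarded, per the study's methods, so no read could lie wholly within such a run. Kdm2a and Kdm2b shared a run of 25 bases within a purine repeat. Among the KDM4 genes the longest shared run was 25 bases, between Kdm4a and Kdm4c, and it is shown as the longest run between KDM4 genes.
Kdm4a, at chr4:118164854-118164878 on the minus strand: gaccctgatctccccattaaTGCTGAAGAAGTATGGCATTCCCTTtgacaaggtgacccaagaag
Kdm4c, at chr4:74311719-74311743 on the plus strand: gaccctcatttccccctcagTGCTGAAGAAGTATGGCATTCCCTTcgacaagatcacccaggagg
Of the 31-base words in the exons of Nsd2, 0.177% also occurred in a transcript of another gene, and all of these lay in Nelfa, whose last bases overlap those of Nsd2 on the opposite strand. The share was highest for Kdm2b, at 13.4%, and 0 for each of the 3 KDM4 genes.

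Nsd2, the targeted gene, lies at chr5:33820725-33897975 on the plus strand and is protein coding. It was lower in every Nsd2 Vil-KO library than in any Nsd2 f/f library. In Nsd2 f/f replicates 1 to 3 its level was 47.9, 51.2 and 24.6 CPM. The Nsd2 Vil-KO replicates 1 to 3 had levels of 24.2, 10.4 and 20.8 CPM. The groups were separated by little, because Nsd2 f/f replicate 3 lay just above Nsd2 Vil-KO replicate 1. The mean fell from 41.2 ± 14.5 CPM (SD, n = 3) to 18.5 ± 7.17 CPM (SD, n = 3). By edgeR's quasi-likelihood test the log2 fold change was -1.16 (SE 0.39, 95% interval -2.09 to -0.23, adjusted p = 0.992), and over 18 alternatives of the analysis the adjusted p ran from 0.119 to 1. Expressed as a ratio, Nsd2 Vil-KO held 0.45 times the Nsd2 f/f level, with an interval from 0.24 to 0.85. The exact permutation test gave p = 0.1 (two-sided), the smallest value that 3 against 3 allows. The criterion used here was a fold change above 1.2 with an unadjusted p below 0.05. The study's results state these limits without saying whether p was adjusted. Its methods select genes at an adjusted p below 0.05. Nsd2 passed the criterion used here with all 6 libraries, but not without Nsd2 f/f replicate 1 (-1.04) or without Nsd2 f/f replicate 2 (-0.97). Nor did it pass when libraries were scaled by their total counts alone (-1.12).

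The counts are per gene, so transcripts that lack only the deleted exons could still be counted. Transcripts of cells in which Villin-Cre is not active could be counted as well. The part of either in the Nsd2 reads of Nsd2 Vil-KO was not tested. In bulk libraries, fewer cells of a type and less RNA per cell cannot be told apart. Stromal and leukocyte markers had median log2 fold changes of -1.26 and -0.63, in the direction of Nsd2, and their part in the result for Nsd2 was not tested. Within each genotype Nsd2 was lowest in the library with Xist, and these 2 libraries were also those with the lowest proliferation sums and the highest shares of mitochondrial reads, 19.6% in Nsd2 f/f replicate 3 and 9.13% in Nsd2 Vil-KO replicate 2 against between 5.51% and 7.26% elsewhere. Within the 4 libraries without Xist, Nsd2 was at 47.9 and 51.2 CPM in Nsd2 f/f and at 24.2 and 20.8 CPM in Nsd2 Vil-KO, a log2 difference of -1.14. Between the 2 libraries with Xist, the log2 difference was -1.24, from 24.6 to 10.4 CPM. The interaction of genotype with the presence of Xist was -0.10 on the log2 scale for Nsd2 (SE 0.26), in a fit whose spread came from the 4 libraries without Xist alone, since each genotype had 1 library with Xist.

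**Figure D1:**
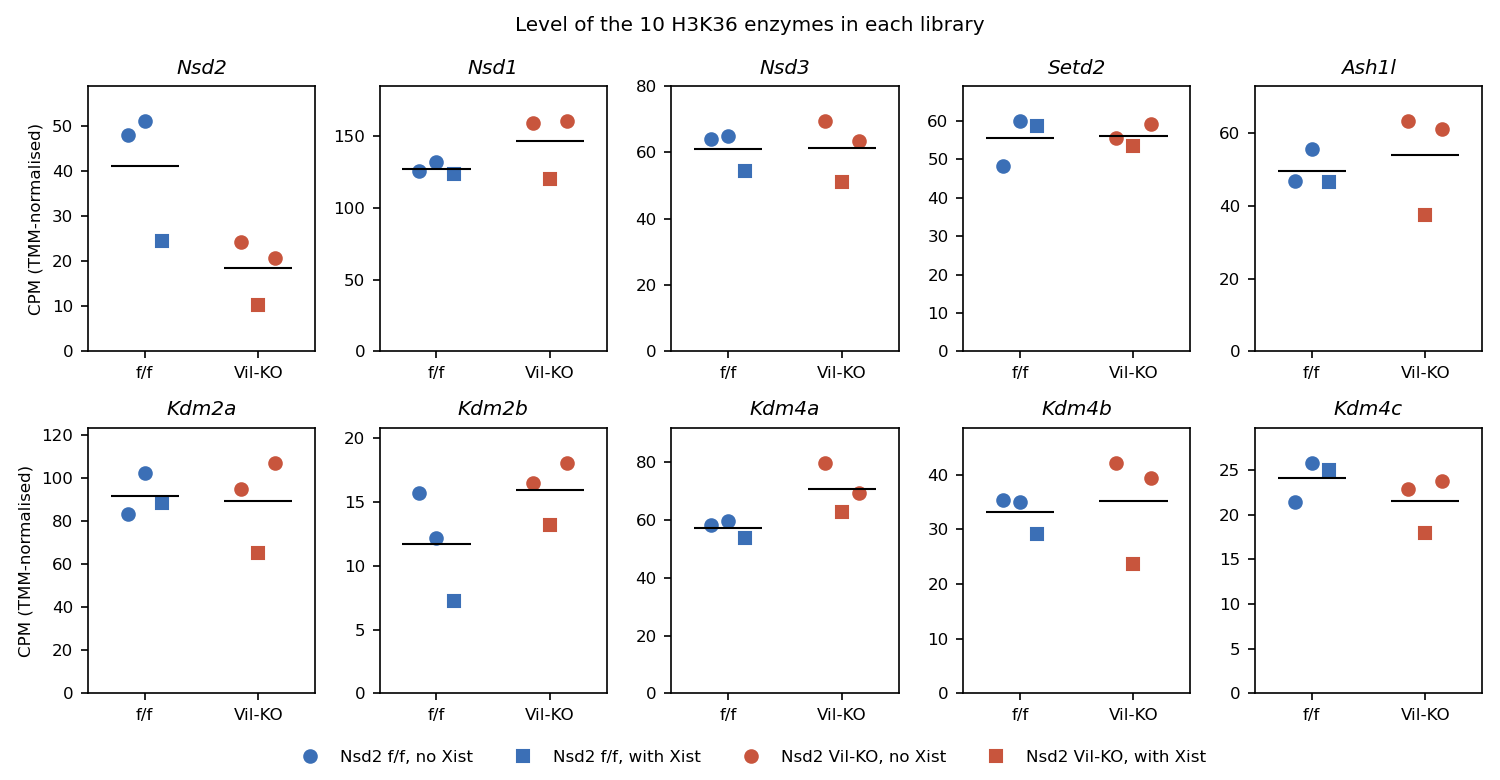
Each panel plots the TMM-normalised CPM of 1 of the 10 H3K36 enzymes in the 6 libraries, by genotype on the horizontal axis, with a line at the group mean and squares for the libraries that held Xist. Nsd2 fell from a mean of 41.2 to 18.5 CPM, Kdm4a was at least 62.8 CPM in each Nsd2 Vil-KO library and at most 59.5 CPM in each Nsd2 f/f library, and the groups overlapped for the other 8 genes.

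Of the 10 members, 1 (Nsd2) was lower and 0 were higher by that criterion. Over all genes tested, 1.65% were lower and 1.65% were higher by the same criterion. That background itself moved with single libraries, from 241 genes in each direction. Leaving out Nsd2 Vil-KO replicate 2 gave 364 higher and 405 lower genes, and leaving out Nsd2 f/f replicate 2 gave 117 and 206. None of the members, and 0% of all genes, had an adjusted p below 0.05 in edgeR. The smallest adjusted p over all genes was 0.992, the value also given for Nsd2. Of the 14650 genes tested, 482 had an unadjusted p below 0.05. At an adjusted p below 0.05, DESeq2 gave 4 genes and limma-voom 0. The groups did not overlap for 2 members, Nsd2 and Kdm4a, against 9.9% of all genes tested. The 9 enzymes other than Nsd2 had log2 fold changes between -0.16 and 0.43, with a median of 0.08 and 7 of them above 0. The median over all genes tested was 0.0012.

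Among the other writers, Nsd1 (chr13:55209782-55318325) was the most abundant in CPM. Its level was 126, 132 and 124 CPM in Nsd2 f/f. It was 159, 120 and 161 CPM in Nsd2 Vil-KO. The control values lay close together, whereas Nsd2 Vil-KO replicates 1 and 3 lay above all of them and replicate 2 below. Over the 6 libraries the log2 fold change of Nsd1 was 0.21 (SE 0.18, 95% interval -0.22 to 0.64), which did not pass the criterion, with an exact permutation p = 0.4 (two-sided). A rise of up to 1.56-fold lay within the interval.

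Nsd1 was 1 of 2 members whose call changed when the library Nsd2 Vil-KO replicate 2 was left out. Without that library Nsd1 was higher in Nsd2 Vil-KO by 0.33 on the log2 scale and passed the criterion. In that fit 2.4% of all genes passed as higher. limma-voom was run with quality weights, so libraries could count unequally, and called 682 genes higher, against 241 in edgeR without covariates. With all 6 libraries weighted in this way Nsd1 also passed (0.30). In the 4 libraries without Xist its log2 fold change was 0.33 (SE 0.10, 95% interval 0.08 to 0.57, adjusted p = 0.376 in edgeR) and it passed as well. Over the 18 alternatives its adjusted p ran from 0.376 to 1. In those 4 libraries 5.6% of all genes were called higher and 5.36% lower. Between the libraries with Xist the log2 difference for Nsd1 was -0.05.

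Nsd3 (chr8:25601601-25719667), the third member of the family, was at 64, 65.1 and 54.3 CPM in Nsd2 f/f and at 69.6, 51.1 and 63.4 CPM in Nsd2 Vil-KO. The values of the genotypes were interleaved and the means, 61.1 and 61.4 CPM, were nearly equal. Its log2 fold change was 0.01 (SE 0.18), with a 95% interval that allowed between 0.74 and 1.35 times the control level.

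Setd2 (chr9:110532597-110618633), which encodes the trimethylating enzyme, was at 48.3, 60.1 and 58.7 CPM in Nsd2 f/f and at 55.5, 53.6 and 59.1 CPM in Nsd2 Vil-KO. It had the smallest spread between Nsd2 Vil-KO libraries of the writers relative to its mean (SD 2.75 CPM on 56.1 CPM). Its log2 fold change was 0.01 (SE 0.16), with an interval from 0.77 to 1.32 times the control level.

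Ash1l (chr3:88950622-89079375) was at 46.8, 55.8 and 46.6 CPM in Nsd2 f/f and at 63.5, 37.5 and 61.3 CPM in Nsd2 Vil-KO. Both the highest and the lowest value came from Nsd2 Vil-KO libraries, so the spread within that group (SD 14.4 CPM) exceeded the difference between the means, 49.8 and 54.1 CPM. Over all libraries its log2 fold change was 0.12 (SE 0.24, 95% interval -0.44 to 0.68). It was 0.29 (SE 0.13) in the 4 libraries without Xist, where it did not pass the criterion, and the log2 difference was -0.31 between the libraries with Xist. The difference between these effects was -0.60 (SE 0.23, adjusted p = 0.132 in edgeR), with an unadjusted p below 0.05, as for 30.1% of all genes in that fit. With 1 library with Xist per genotype, this SE rests on the spread of the other 4 libraries and leaves out the spread between libraries with Xist. Ash1l shares 352 exonic bases, 2.37% of its exons, with Dap3 on the opposite strand, and Dap3 had a log2 fold change of -0.10.

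**Figure D2:**
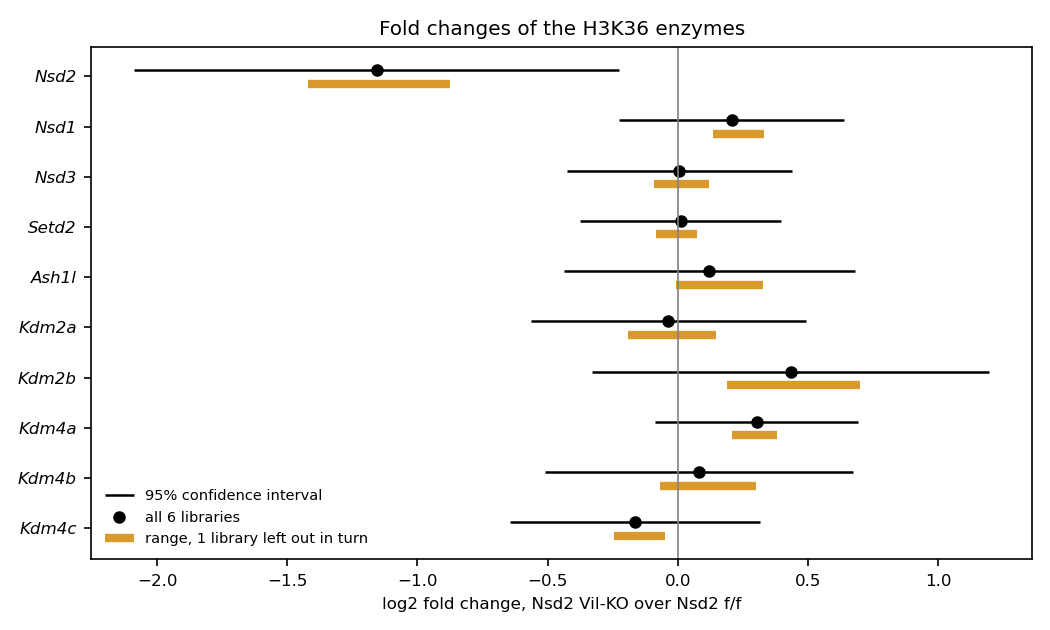
Points show the log2 fold change of each enzyme in Nsd2 Vil-KO over Nsd2 f/f from edgeR, black lines the 95% confidence intervals and yellow bars the range when each of the 6 libraries was left out in turn. The interval of Nsd2 lay below 0 (-2.09 to -0.23) and the intervals of the other 9 enzymes included 0.

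Among the erasers, Kdm4a (chr4:118136957-118180043) was the member other than Nsd2 whose groups did not overlap. It was at 58.3, 59.5 and 53.9 CPM in Nsd2 f/f and at 79.8, 62.8 and 69.3 CPM in Nsd2 Vil-KO. The mean was 57.2 ± 2.96 CPM in the controls, against 70.6 ± 8.59 CPM with Cre (SD, n = 3 each). In edgeR its log2 fold change was 0.30 (SE 0.17, 95% interval -0.09 to 0.69, adjusted p = 0.992), which did not pass the criterion. The exact permutation test gave p = 0.1 (two-sided), again the smallest value possible.

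Kdm4a was the other member whose call changed without Nsd2 Vil-KO replicate 2, where it passed at a log2 fold change of 0.38. With all 6 libraries, limma-voom with quality weights called 682 genes higher and Xist as covariate 547, against 241 in edgeR without covariates. Kdm4a also passed in these fits, at 0.32 and 0.30. In the 4 libraries without Xist the log2 fold change was 0.35 (SE 0.12, 95% interval 0.06 to 0.64, adjusted p = 0.402 in edgeR), again past the criterion. The log2 difference between the libraries with Xist was also above 0, at 0.22. Over the alternatives the adjusted p of Kdm4a ran from 0.402 to 1. Over the 18 alternatives of the analysis Kdm4a passed the criterion in 4, Nsd1 in 3 and Nsd2 in 15, and none of the other 7 members passed in any.

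The other KDM4 genes did not differ beyond the spread between libraries. Kdm4b (chr17:56326062-56402870) was at 35.4, 35 and 29.2 CPM in Nsd2 f/f and at 42.2, 23.7 and 39.4 CPM in Nsd2 Vil-KO. As for Ash1l, the extremes were both Nsd2 Vil-KO libraries, and replicate 2 was the lowest. The fold change was 0.08 on the log2 scale (SE 0.25). Kdm4c (chr4:74242497-74405860) was at 21.4, 25.8 and 25 CPM in Nsd2 f/f and at 22.8, 17.9 and 23.8 CPM in Nsd2 Vil-KO, with a log2 fold change of -0.16 (SE 0.20). It had the most negative value of the 9 enzymes other than Nsd2, and its interval allowed between 0.64 and 1.24 times the control level. For Kdm4b the interval allowed between 0.70 and 1.60 times.

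Kdm2a (chr19:4314419-4398285), the more abundant of the KDM2 genes, was at 83.4, 102 and 88.2 CPM in Nsd2 f/f and at 95, 65.1 and 107 CPM in Nsd2 Vil-KO. The controls lay inside the range of the Nsd2 Vil-KO libraries, of which replicate 2 was the lowest. A log2 fold change of -0.04 (SE 0.22) was found, with an interval from 0.68 to 1.41 times the control level.

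Kdm2b (chr5:122870665-122989823), whose product brings a variant Polycomb repressive complex to CpG islands, had the fewest reads of the members in total, between 90 and 354 counts per library. It was at 15.7, 12.2 and 7.27 CPM in Nsd2 f/f and at 16.5, 13.2 and 18.1 CPM in Nsd2 Vil-KO. The library Nsd2 f/f replicate 3 was the lowest by far, and the other 5 libraries lay between 12.2 and 18.1 CPM. Its log2 fold change of 0.43 (SE 0.32) did not pass the criterion but was the highest among the members, and its interval, from 0.80 to 2.29 times the control level, was the widest among the 9 enzymes other than Nsd2. Without Nsd2 f/f replicate 3 it was 0.19. Kdm2b shares 627 exonic bases, 5.77% of its exons, with Rnf34 on the opposite strand. Rnf34 had a log2 fold change of -0.40 (SE 0.20), opposite in sign to that of Kdm2b.

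The members were then compared with one another per length of their merged exons, a scale that allows levels of different genes to be set side by side. In Nsd2 f/f, Kdm4a had the highest level, 9.9 ± 0.512 CPM per kb (SD, n = 3). Nsd1 (7.28), Kdm4b (6.78), Kdm2a (6.33), Setd2 (5.18), Kdm4c (4.13), Nsd3 (3.7) and Ash1l (3.35) CPM per kb followed. Nsd2, at 2.45 ± 0.864 CPM per kb, and Kdm2b, at 1.08 ± 0.39 CPM per kb, were the lowest. The neighbouring pairs Nsd1 and Kdm4b, Kdm4b and Kdm2a, Kdm4c and Nsd3, and Nsd3 and Ash1l overlapped between control libraries, so the order within these pairs is not resolved. In Nsd2 Vil-KO, Nsd2 was last, at 1.1 ± 0.427 CPM per kb, below Kdm2b at 1.46 ± 0.229 CPM per kb, and the ranks of Kdm4c and Nsd3 were exchanged.

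This order depended on the length assigned to a gene. Per kb of the longest coding transcript, Kdm2a ranked first in Nsd2 f/f with 12.6 CPM per kb, ahead of Kdm4a with 12.3 CPM per kb, and Nsd2 ranked 7 with 5.77 CPM per kb. By that length Nsd2 was still last in Nsd2 Vil-KO, at 2.59 CPM per kb. The merged exons of Nsd2 span 16.8 kb whereas its longest coding transcript spans 7.142 kb, so its level per kb is the one that moved most in proportion.

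**Figure D3:**
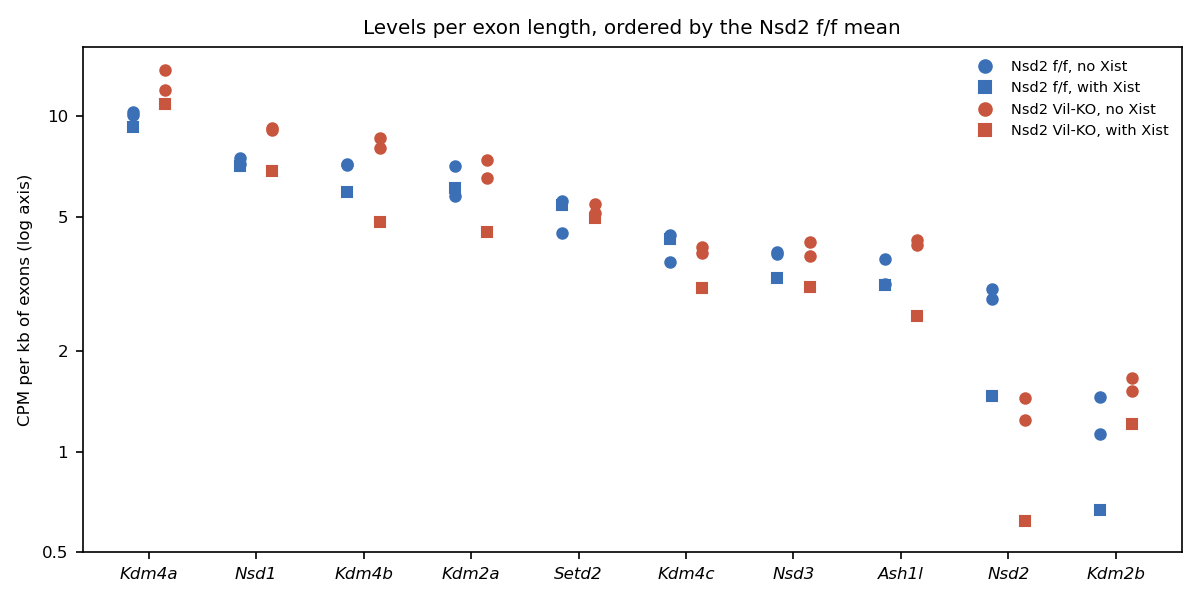
The level of each enzyme in each library is plotted as CPM per kb of merged exons on a log axis, with genes ordered by their Nsd2 f/f mean from Kdm4a (9.9) to Kdm2b (1.08) and squares for the libraries that held Xist. Nsd2 moved from a mean of 2.45 to 1.1 CPM per kb, below Kdm2b.

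Within the NSD family, the share of Nsd2 in the summed level per kb of Nsd1, Nsd2 and Nsd3 was 20.5%, 21% and 12.3% in the Nsd2 f/f libraries and 9.77%, 5.85% and 8.67% in the Nsd2 Vil-KO libraries. The share was thus lower in every Nsd2 Vil-KO library. Nsd1 took 54.5 ± 4.76% of the family's sum in Nsd2 f/f and 63.7 ± 1.84% in Nsd2 Vil-KO (SD, n = 3). The share of Nsd3 was 27.6 ± 0.321% and 28.2 ± 1.25%. The sum itself was 13.4 ± 1.36 and 13.2 ± 2.26 CPM per kb, a difference smaller than the spread in either group. Per kb of the longest coding transcript, the share of Nsd2 was 26 ± 6.39% and 12.5 ± 2.98%.

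Summed over the 5 writers, the level was 22 ± 1.73 CPM per kb in Nsd2 f/f and 22.1 ± 3.44 CPM per kb in Nsd2 Vil-KO. The sum of the 5 erasers was 28.2 ± 1.85 and 30.7 ± 5.4 CPM per kb. The ratio of the writers' sum to the erasers' sum was 0.765, 0.793 and 0.776 in Nsd2 f/f and 0.702, 0.74 and 0.721 in Nsd2 Vil-KO, without overlap. When Nsd2 was left out of the writers, the ratio was 0.692 ± 0.0285 in Nsd2 f/f and 0.686 ± 0.0266 in Nsd2 Vil-KO (SD, n = 3) and the groups overlapped. These sums are of transcripts and do not measure enzyme activity or the mark.

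A ratio of counts within a library does not depend on how libraries are scaled to each other, so Nsd2 was also set against each of the other 9 enzymes within each library. For Nsd1 the log2 ratio of Nsd2 counts to Nsd1 counts was -1.39, -1.36 and -2.34 in Nsd2 f/f and -2.71, -3.53 and -2.95 in Nsd2 Vil-KO. The difference between the group means was -1.37 for Nsd1, -1.17 for Nsd3, -1.19 for Setd2 and -1.26 for Ash1l. Among the erasers it was -1.11 for Kdm2a, -1.67 for Kdm2b, -1.47 for Kdm4a, -1.22 for Kdm4b and -1.0 for Kdm4c. The groups did not overlap for 7 of the 9 ratios, with the exceptions of those to Setd2 and Kdm4c. All 9 ratios share the Nsd2 counts, so they are not 9 separate results about the members. No share over ratios of Nsd2 to other genes is given. The exact permutation test gave p = 0.1 for these 7, the smallest value possible, and p = 0.2 for the other two (two-sided). After Benjamini-Hochberg adjustment over the 9 ratios, which share the Nsd2 counts, the exact p-values became 0.129 and 0.2. Nsd2 counts exceeded those of Kdm2b in each control library (log2 ratios 1.61, 2.06 and 1.76) and were near them in Nsd2 Vil-KO (0.55, -0.34 and 0.21).

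**Figure D4:**
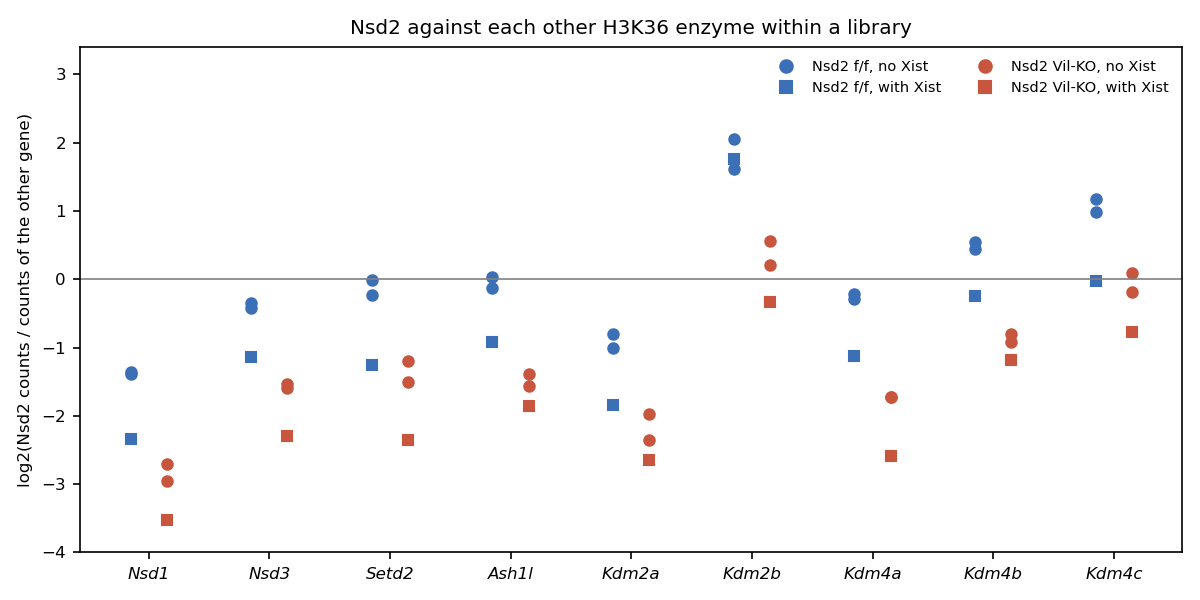
The log2 ratio of Nsd2 counts to the counts of each other enzyme is plotted for each library, with Nsd2 f/f on the left and Nsd2 Vil-KO on the right of each gene and squares for the libraries that held Xist. All 9 differences between group means were below 0, from -1.67 for Kdm2b to -1.0 for Kdm4c, and the library Nsd2 f/f replicate 3 was the lowest of its group for 8 of the 9 genes.

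Related genes were then examined in 6 lists. Among other enzymes reported to act on H3K36, 0 of 7 tested genes passed the criterion in either direction, and the median log2 fold change was -0.07. Setmar, a SET domain protein fused to a transposase, had the lowest value, -0.80 (SE 0.37). It was at 4.46, 3.55 and 6.38 CPM in Nsd2 f/f and at 2.83, 2.27 and 3.12 CPM in Nsd2 Vil-KO, without overlap. Setd3, named here after its values were seen, was the other gene of this list without overlap, at a log2 fold change of -0.31 (SE 0.17). The groups thus did not overlap for 2 of the 7 genes, beside 9.9% of all genes tested. Smyd2, a methyltransferase also known for non-histone substrates, had the highest value, 0.09. Setmar passed the criterion as lower with DESeq2 and with at least 10 counts required in every library. In these fits 322 and 209 genes were lower. Kdm4d was not tested, with at most 0.0975 CPM in any library.

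Of 21 genes listed as readers of methylated H3K36, most carry PWWP, Tudor or chromodomains. Among the 21, 0 passed in either direction, with 12 values above 0, 9 below and a median of 0.01. Their range ran from -0.58 for Zcwpw1 to 0.48 for Pwwp2b. Dnmt3a, the de novo DNA methyltransferase whose PWWP domain binds dimethyl and trimethyl H3K36, was the only reader whose groups did not overlap. That was 1 of 21 readers, beside 9.9% of all genes tested. Dnmt3a is named here for its lack of overlap, after its values were seen. It was at 23.6, 22 and 21.3 CPM in Nsd2 f/f and at 29.9, 29.3 and 27.2 CPM in Nsd2 Vil-KO. Its values were tight within each genotype, and its log2 fold change was 0.37 (SE 0.17), outside the criterion. It passed as higher with DESeq2, limma-voom with quality weights, Xist as covariate and the 4 libraries without Xist. Those fits called 311, 682, 547 and 841 genes higher. Phf1, a Polycomb-like protein gene, passed as lower (-0.67) without Nsd2 Vil-KO replicate 1, where 264 genes were lower.

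Partners of the writers and of KDM2B, 11 genes, had a median of 0.13 and 0 past the criterion. Their values ran from -0.26 for Pcgf1, a subunit of the KDM2B-containing Polycomb complex, to 0.29 for Bcor, another subunit of it. In the 4 libraries without Xist Polr2a (0.35) and Ring1 (0.30) were higher and Rnf2 (-0.52) was lower. That fit called 841 genes higher and 805 lower. Ring1 and Rnf2 also passed with limma-voom with quality weights, where 682 genes were higher and 758 lower. Rnf2 (-0.58) passed without Nsd2 Vil-KO replicate 2, where 405 genes were lower. Polr2a, Ring1, Rnf2 and Phf1 are named after their values were seen. The 6 enzymes and core subunits that write or erase methyl groups on H3K27, a mark that H3K36 methylation antagonises on the same histone tail, had values between -0.17 for Eed and 0.29 for the demethylase gene Kdm6a. None of the 6 passed, and their median was 0.13. Kdm6a was highest in the libraries with Xist, at 42 CPM in Nsd2 f/f replicate 3 and 55.8 CPM in Nsd2 Vil-KO replicate 2. In the 4 libraries without Xist it was between 24.4 and 30.7 CPM.

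Of 26 further histone methyltransferases, demethylases and related JmjC proteins, 1 was higher and 0 were lower, with a median of 0.11 and 20 values above 0. The gene past the criterion was Kdm5a, an H3K4 demethylase. It was at 36.5, 32.2 and 36.2 CPM in Nsd2 f/f and at 42.9, 47.9 and 47.3 CPM in Nsd2 Vil-KO, so that all 3 Nsd2 Vil-KO libraries were higher. Its log2 fold change was 0.40 (SE 0.16, adjusted p = 0.992 in edgeR). Kmt5a, the H4K20 monomethyltransferase, had the lowest value, -0.15. The share of 1 in 26 stands beside the 1.65% of all genes that were higher. With 1 library left out Kdm5a kept a log2 fold change between 0.34 and 0.45 but passed the criterion in 1 of 6 such fits, that without Nsd2 Vil-KO replicate 2, and its adjusted p over all 18 alternatives ran from 0.376 to 1.

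The result for this list also depended on the libraries that stood apart. In the 4 libraries without Xist 10 of its 26 genes were higher and 0 lower, with 25 values above 0 and a median of 0.26, where 5.6% of all genes were higher and the median of all genes was -0.0003. Leaving out Nsd2 Vil-KO replicate 2 alone gave 6 of 26 higher, beside 2.4% of all genes, and a median of 0.32. The 10 H3K36 members gave 2 higher and 1 lower in each of these fits, with medians of 0.18 and 0.22. Nsd1 and Kdm4a thus moved in the same direction as a number of methyltransferases and demethylases of other histone residues in those libraries. Whether the members differ from that list was not tested.

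Among 16 proliferation genes 0 passed, and the values ran from -0.11 for the replication helicase subunit gene Mcm3 to 0.52 for the ribonucleotide reductase subunit gene Rrm2. The median was 0.17, and Top2a (0.59), named after its values were seen, passed as higher with Xist as covariate, where 547 genes did. The standard errors of this list were large because Nsd2 f/f replicate 3 and Nsd2 Vil-KO replicate 2 lay below the others in most of these genes. Mki67, the Ki-67 antigen gene and the most abundant of the list, was at 279, 288 and 70.3 CPM in Nsd2 f/f and at 280, 114 and 412 CPM in Nsd2 Vil-KO. The lowest Mki67 value of each genotype was in the library with Xist, as for Nsd2, and the part of proliferation in the result for Nsd2 was not tested.

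**Figure D5:**
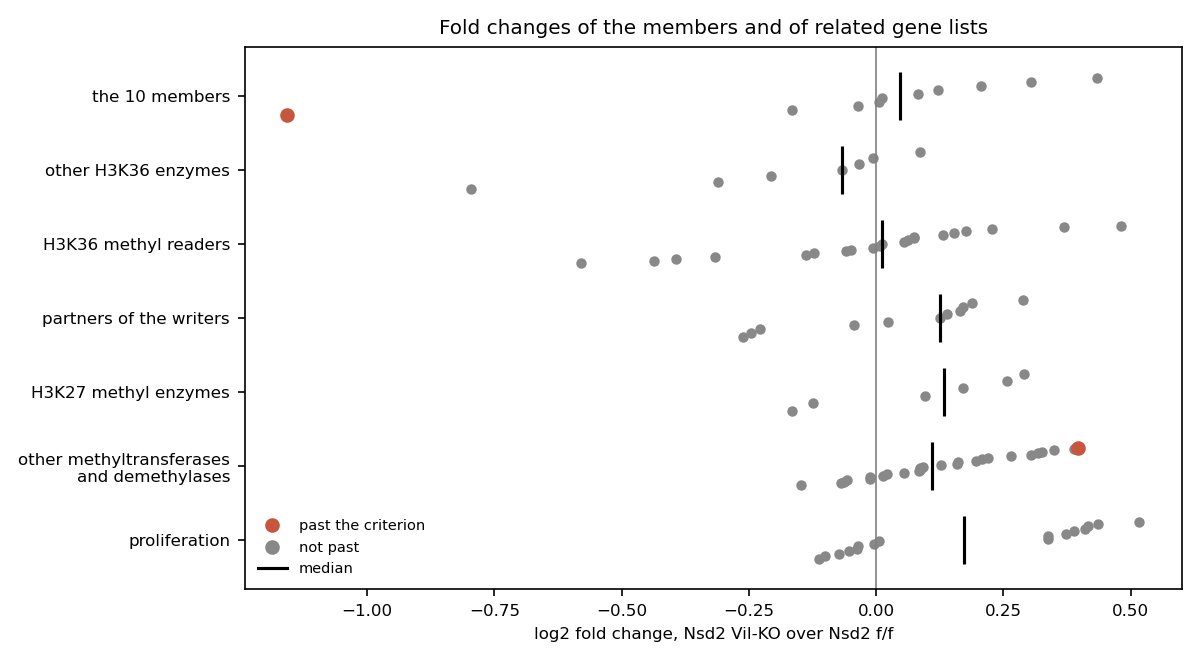
Each point is the log2 fold change of 1 tested gene in Nsd2 Vil-KO over Nsd2 f/f, grouped into the 10 members and the 6 related lists, with a black line at the median of each list and red points past the criterion. Nsd2 (-1.16) and Kdm5a (0.40) were the genes past it, and the list medians lay between -0.07 and 0.17.

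The genes around Nsd2 were examined as well. The 8 tested genes annotated within 250 kb of Nsd2 were Fam53a, Slbp, Tmem129, Tacc3, G630022F23Rik, Fgfr3, Letm1 and Nelfa. None passed the criterion. Nelfa, a subunit gene of the negative elongation factor that ends in an overlap of 60 bases with Nsd2, was at 26.3, 31.7 and 26.3 CPM in Nsd2 f/f and at 25.7, 27.2 and 31.4 CPM in Nsd2 Vil-KO, a log2 fold change of 0.0016. The values of the genotypes were interleaved.

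Fgfr3, which encodes a fibroblast growth factor receptor, was the only gene of the 8 whose groups did not overlap. That was 1 of 8, beside 9.9% of all genes tested. Fgfr3 was at 45.1, 42.2 and 33.7 CPM in Nsd2 f/f and at 29.2, 11.5 and 28.2 CPM in Nsd2 Vil-KO. Its log2 fold change was -0.81 (SE 0.36), and as for Nsd2 the lowest library of each genotype was the one with Xist. The highest value among the neighbours was 0.47 for Tacc3 and the others, apart from Fgfr3, lay between -0.44 and 0.14.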

How the data were processed

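RNA-seq libraries of colon IECs from DSS-treated mice, 3 Nsd2 f/f and 3 Nsd2 Vil-KO, were grouped by the genotype in the labels. The authors deposited raw counts per Ensembl gene and library, neither normalised nor filtered. Per the study's methods, trimmed paired reads were aligned to GRCm38 with HISAT2; FPKM were estimated with StringTie. How the deposited counts were made, and whether by strand, is not given in the sources used here, so reads of genes that overlap on opposite strands may be shared. The library kit in the labels is not the one in the methods. All 6 columns were used. Depth ran from 15439123 to 20350539 counts per library, so 3 counts corresponded to between 0.146 and 0.242 CPM.

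Genotypes were compared with edgeR 4.0.16 under R 4.3.3 (filterByExpr by genotype, TMM, robust quasi-likelihood test, no covariates), with Benjamini-Hochberg adjustment over the 14650 genes tested. Standard errors were taken from the quasi-likelihood F. CPM are TMM-normalised, and CPM per kb used merged exons of GENCODE vM21. Exact permutation tests used log2 CPM. Every member, and in each of the 6 related lists the extremes and any gene past the criterion, were named; marker lists are given by sums, counts and medians. Coding sequences were those of the longest coding transcript. Alternatives were RLE or library size scaling, 2 filters, DESeq2 1.42.0, and limma-voom 3.58.1 with quality weights for the libraries. Further alternatives were robust estimation off, mitochondrial genes left out, a replicate block and Xist as covariate. The 4 libraries without Xist, each library left out, and other fold limits or lengths were also used. An earlier form of the quasi-likelihood fit, the interaction with Xist and the transcript length were added after seeing the data. The members and lists were chosen with earlier results of these data known.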

Additional observations from a re-analysis of the deposited data

Results flagged for a closer look

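The genotype effect on Ash1l passed an unadjusted p below 0.05, but not the adjustment, for a difference between the libraries with Xist and those without. The effect in the libraries with Xist minus that in the others was -0.60 on the log2 scale (SE 0.23, adjusted p = 0.132 in edgeR). With 1 library of each genotype holding Xist, the SE rests on the spread of the other 4 libraries, and the difference has no replicate within the Xist pair. In the same fit 4415 of 14650 genes (30.1%) had a p below 0.05, and Ash1l was the only such gene among the members. Ash1l was higher in Nsd2 Vil-KO in the libraries without Xist, at 63.5 and 61.3 against 46.8 and 55.8 CPM, and lower in the single pair with Xist, at 37.5 against 46.6 CPM.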

How the results depend on the processing

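Of 180 recalculations of a member's log2 fold change, 156 kept their direction and their side of the criterion. Nsd2 stayed below 0 in all 18 alternatives but missed the criterion with library size only (-1.12) and when replicate 1 or replicate 2 of Nsd2 f/f was left out (range with 1 library left out -1.42 to -0.87). In these 3 fits 0 members were lower. Members higher numbered 2 with limma-voom and with the 4 libraries without Xist, 1 with Xist as covariate, and 0 to 2 with 1 library left out. The direction reversed in 14 recalculations, all of members not past the criterion. Nsd3 was -0.000806 with the replicate block, Kdm2a was 0.0382 with library size only, 0.0935 with limma-voom and 0.13 in the 4 libraries without Xist, and with 1 library left out values spanned -0.0925 to 0.122 for Nsd3, -0.0819 to 0.0723 for Setd2, -0.0082 to 0.33 for Ash1l, -0.19 to 0.15 for Kdm2a and -0.0686 to 0.299 for Kdm4b. Genes past the criterion, higher and lower, numbered 377 and 484 without a filter, 682 and 758 with limma-voom, 547 and 598 with Xist as covariate, 841 and 805 in the 4 libraries without Xist, 125 and 154 above a fold change of 2, and from 117 to 364 and 171 to 405 with 1 library left out. DESeq2 gave 4 genes with an adjusted p below 0.05, against 0. The causes were not tested. The deviations of same-numbered replicates from their group means had correlations of 0.322, -0.35 and -0.108. For differently numbered replicates they ran from -0.359 to 0.309. With 3 libraries per group, these values cannot show whether the numbers pair the libraries. With the replicate block Nsd2 was -1.16 (past the criterion) and 133 and 170 genes passed. The depth of Kdm2b, at 90 counts in its lowest library, and 3 libraries per group limit the precision.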
